A study of Mus musculus with 180 samples.

Results

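The mRNA levels of 10 heat shock chaperone genes were examined in 180 single blood cells of 4 populations: Hspa8, Hspa1a, Hspa1b, Dnajb1, Hsph1, Hsp90aa1, Hsp90ab1, Hspd1, Hspe1 and Hspb1. The genes were chosen by name as the main cytosolic and mitochondrial heat shock proteins, and all 10 were among the 14825 genes of the deposited expression table. The populations were 47 CD11b+CD48+SK cells, 41 WT-MPP, 36 BM HSC and 56 FL HSC, all from C57BL/6 mice. WT-MPP (multipotent progenitors) and BM HSC (bone marrow haematopoietic stem cells) came from 8 weeks old mice of the genotype Rosa LSL-Hoxb5-EGFP/+, in which a stop cassette keeps the Hoxb5 transgene silent, and FL HSC (fetal liver haematopoietic stem cells, sorted as CD45.2+ Lin- cells with Sca1, c-Kit, Mac1 and CD150) came from embryos of that genotype at Day14.5. CD11b+CD48+SK cells (SK cells for short, Sca1+c-Kit+ cells that carry CD11b, also called Mac-1, and CD48) were donor-derived cells taken at week 8 from lethally irradiated CD45.1+ primary recipients of MPP from Mx1-Cre, Rosa LSL-Hoxb5-EGFP/+ mice. The recipients were given pIpC, an inducer of the interferon-driven Mx1-Cre. SK cells therefore differed from the other 3 populations in Cre, pIpC, Hoxb5 transgene expression and transplantation together, and transplanted control MPP were not analysed here. No cell was tied to an animal by the labels, which leaves 1 sample per population: the populations were compared without a test, and every spread given is over cells.

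Heat shock proteins are molecular chaperones, which bind unfolded or newly made proteins and help them to fold. Hsp70 proteins work in cycles of ATP hydrolysis that are started by J-domain proteins and ended by nucleotide exchange factors, and pass some clients on to Hsp90. In mitochondria, a chaperonin chamber and its lid fold imported proteins. Transcription of many of these genes is raised by the heat shock factor Hsf1, which binds heat shock elements, inverted repeats of the letters GAA, when unfolded proteins accumulate. Adult haematopoietic stem cells are known for a low rate of protein synthesis.

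RefSeq promoter windows (build GRCm38.p6, from 250 bases before to 50 bases after a transcription start) matched 7 of the 10 genes, in 10 windows. The short heat shock element searched was GAANNTTC or TTCNNGAA, each of which reads the same on both strands, and it was found in at least 1 window of 6 of the 7 genes. The windows of Dnajb1 and 1 of the 2 windows of Hspd1 held none. Of all 32851 windows, 15.1% held it, a share per window and not per gene. The longer element of 3 units, which contains the short one (GAANNTTCNNGAA or TTCNNGAANNTTC, both strands), was found in 4 of the 10 windows and in 0.603% of all windows. Those 4 windows belonged to 3 of the 7 genes, Hspd1, Hspe1 and Hsph1. They are not separate sites, since the windows of Hspd1 and Hspe1 share their elements. Both Hsph1 windows overlap and hold the same element, which begins 36 or 15 bases after the respective start. The 250 bases before the start are printed for Hspa1a and Hspa1b, which could hardly be told apart in the expression table, and for Hspe1, whose upstream bases are shared with Hspd1. Capitals mark the matches, and a match is a run of letters and not a measured binding site.
Hspa1a, chr17:34972157-34972406, minus strand: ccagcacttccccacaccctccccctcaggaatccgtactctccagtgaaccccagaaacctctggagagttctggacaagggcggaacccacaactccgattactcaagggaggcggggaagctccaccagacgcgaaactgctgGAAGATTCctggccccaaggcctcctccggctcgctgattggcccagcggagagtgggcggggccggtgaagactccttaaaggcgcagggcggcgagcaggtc
Hspa1b, chr17:34959239-34959488, minus strand: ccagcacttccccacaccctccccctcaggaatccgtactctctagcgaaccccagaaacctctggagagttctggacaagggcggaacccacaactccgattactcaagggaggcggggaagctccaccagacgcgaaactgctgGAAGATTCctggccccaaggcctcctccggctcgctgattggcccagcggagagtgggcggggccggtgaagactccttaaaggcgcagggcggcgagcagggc
Hspe1, chr1:55087898-55088147, plus strand: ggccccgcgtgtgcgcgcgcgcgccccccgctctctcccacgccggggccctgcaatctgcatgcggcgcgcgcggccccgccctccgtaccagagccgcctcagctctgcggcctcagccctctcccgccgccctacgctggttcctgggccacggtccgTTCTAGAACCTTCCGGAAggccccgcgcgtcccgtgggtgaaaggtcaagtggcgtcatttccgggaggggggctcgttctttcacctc
The Hspa1a and Hspa1b stretches were the same at 247 of 250 positions. The start of Hspe1 lies 216 bases from 1 of the 2 listed starts of Hspd1, which is read from the opposite strand, and the 2 windows shared 285 bases with the overlapping 3-unit elements in them.

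The labels were checked first. The tissue label read bone marrow for every cell, fetal liver HSC included, and the cell type label was used. Cd48 was at a TPM (transcripts per 1000000 transcripts) of 1 or more, here called present, in 47 of 47 SK cells against 7 of 41 WT-MPP, and Slamf1 (CD150) was present in 23 of 36 bone marrow HSC and 31 of 56 fetal liver HSC. Itgam, the gene of CD11b, was found in only 17 of 47 SK cells, and in 2 of 41 WT-MPP, 1 of 36 bone marrow HSC and 9 of 56 fetal liver HSC. Hoxb5 was present in 43 of 47 SK cells, 7 of 41 WT-MPP, 8 of 36 bone marrow HSC and 32 of 56 fetal liver HSC. The median number of genes present per cell was 4514 in SK cells, 3844 in WT-MPP, 4442 in bone marrow HSC and 5207 in fetal liver HSC, so that WT-MPP had the fewest. TPM keeps no read depth, and the depth of each cell is unknown. A value of exactly 0 may be a failed estimate, since Gapdh was listed at 0 in 1 WT-MPP cell.

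The 10 chaperone mRNAs together made up a mean of 0.587% of all TPM in SK cells, 0.413% in WT-MPP, 0.455% in bone marrow HSC and 0.476% in fetal liver HSC. The summed level per cell was 2989 to 11227 TPM (median 5611) in SK cells, 329 to 6959 (median 4527) in WT-MPP, 796 to 9019 (median 4469) in bone marrow HSC and 2018 to 10580 (median 3936) in fetal liver HSC. All 4 ranges overlapped. TPM is per transcript length, so that levels of different genes can be set side by side, and by mean TPM the order was Hspa8, Hsp90ab1, Hsp90aa1 in each population. These 3 cytosolic genes held 84.1% of the summed chaperone TPM in SK cells, 84.2% in WT-MPP, 81.8% in bone marrow HSC and 82.1% in fetal liver HSC.

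**Figure D1:**
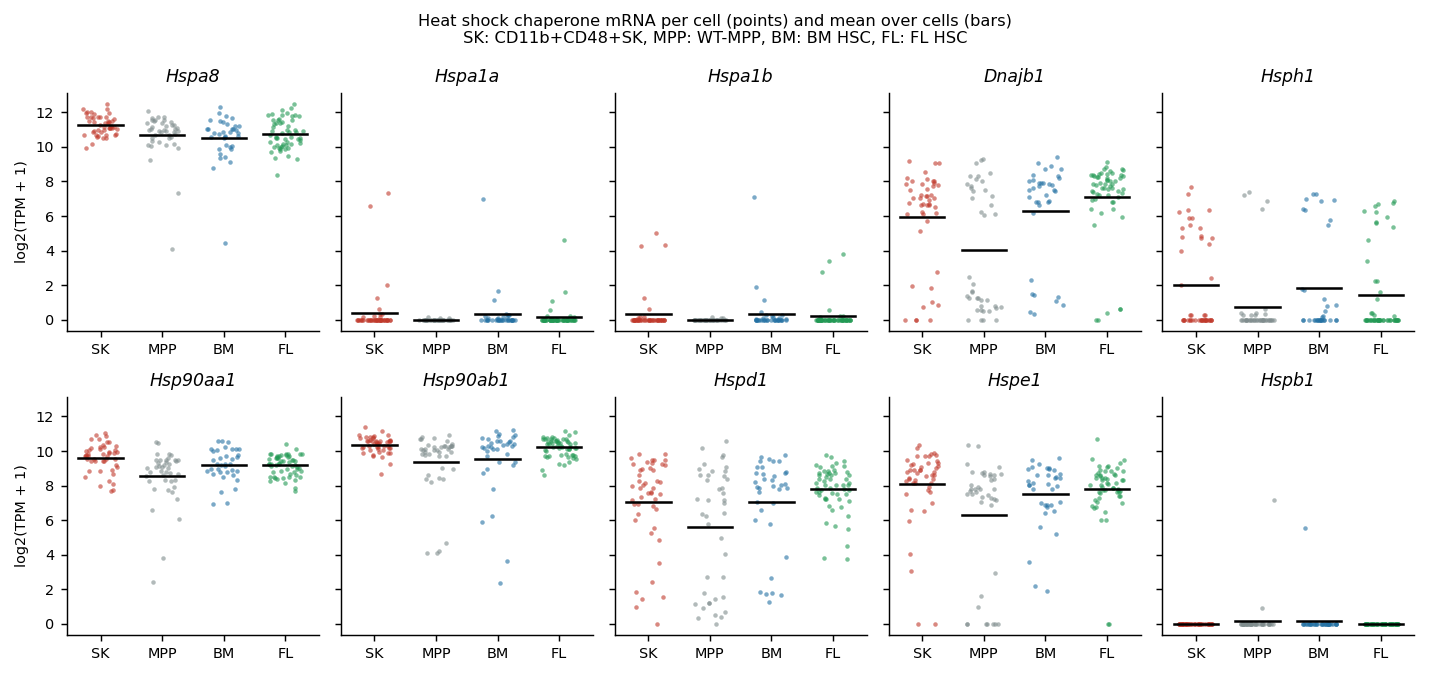
Level of each chaperone mRNA in each cell, as log2(TPM+1) on the vertical axis, with 1 point per cell and a bar at the mean over the cells of a population. Hspa8, Hsp90aa1 and Hsp90ab1 were present in all cells, and Hspa1a, Hspa1b and Hspb1 were at or near 0 in nearly all cells. WT-MPP cells were either below 10 TPM or at 66.4 TPM and above for Dnajb1, and either below 10 TPM or at 117 TPM and above for Hspe1.

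Hspa8 (chr9:40800984-40810087), the constitutive Hsp70 of the cytosol, was the most abundant chaperone mRNA and was present in every cell. Its level was 960 to 5812 TPM (median 2334) in SK cells, 16.2 to 4271 (median 1966) in WT-MPP, 20.5 to 5154 (median 1813) in bone marrow HSC and 329 to 5607 (median 1578) in fetal liver HSC. SK cells had the highest median and no cell below 960 TPM, but the 4 ranges overlapped over most of their length. In mean log2(TPM+1) ± SD over cells, SK cells stood at 11.26 ± 0.57, fetal liver HSC at 10.74 ± 0.86, WT-MPP at 10.67 ± 1.33 and bone marrow HSC at 10.52 ± 1.33. Each step in this order was smaller than the smaller SD of the pair.

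The inducible Hsp70 genes, Hspa1a (chr17:34969190-34972156) and Hspa1b (chr17:34956436-34959238), are single-exon genes that are switched on strongly by heat. Hspa1a was present in 4 of 47 SK cells (8.51%, with an exact 95% interval from 2.37 to 20.4%), 0 of 41 WT-MPP (0%, 0 to 8.60%), 3 of 36 bone marrow HSC (8.33%, 1.75 to 22.5%) and 3 of 56 fetal liver HSC (5.36%, 1.12 to 14.9%), and the counts of Hspa1b were the same in each population. Intervals cover the counting of cells only. The highest Hspa1a level was 159 TPM in SK cells, 0.139 in WT-MPP, 124 in bone marrow HSC and 23.7 in fetal liver HSC. Both inducible genes were thus near 0 in most cells of all populations. With 1 sample per population, a difference between the populations was not tested.

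The few cells with inducible Hsp70 did not all carry high levels of the other cytosolic chaperones. In the 5 SK cells with Hspa1a or Hspa1b present, Hspa8 was 3427 to 5812 TPM, above the third quartile of that population (3376 TPM). In the 3 bone marrow HSC it was 2114, 766 and 4035 TPM. In the 3 fetal liver HSC it was 871, 4410 and 5607 TPM. The bone marrow HSC with 124 TPM of Hspa1a and 135 TPM of Hspa1b also had 156 TPM of Hsph1. The SK cell with the highest Hspa1a, 159 TPM, had Hsph1 listed at 0.

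Values of Hspa1a and Hspa1b were not separate measurements at low levels. In the annotation GENCODE M21, 58.8% of the 50-base stretches of Hspa1a transcripts also occur in Hspa1b, and 62.3% of those of Hspa1b in Hspa1a. Both genes were listed at 0 in 147 of the 180 cells and both were above 0 in 29. In 18 of these 29 cells the ratio of Hspa1b to Hspa1a was within 0.1% of 0.996, which is the ratio of the RefSeq gene lengths (2798 bases for Hspa1a over 2810 for Hspa1b) and the value that equal reads on both genes would give. Only 1 of the 18 cells had Hspa1a at 1 TPM or more, whereas 9 of the other 11 cells had at least 1 of the genes at that level.

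**Figure D2:**
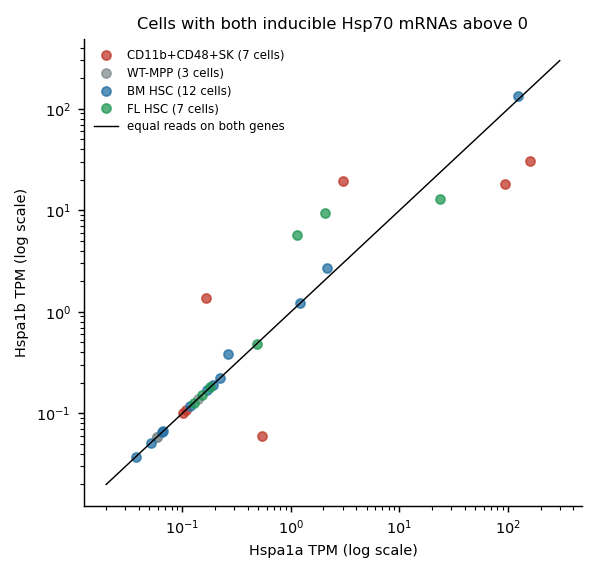
Hspa1b against Hspa1a in the 29 cells with both mRNAs above 0, in TPM on log scales, with 1 point per cell and a line at the ratio of 0.996 that equal reads on both genes would give. Below 1 TPM nearly all cells lie on the line, and above it most cells do not.

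Dnajb1 (chr8:83608193-83612653), a J-domain partner of Hsp70, varied most between cells of WT-MPP. Its level was 0 to 589 TPM (median 120) in SK cells, 0 to 621 (median 3.12) in WT-MPP, 0.255 to 689 (median 181) in bone marrow HSC and 0 to 553 (median 215) in fetal liver HSC. The low median of WT-MPP came from 22 of 41 cells below 10 TPM, while the other 19 cells lay between 66.4 and 621 TPM. In the other populations, cells below 10 TPM numbered 10 of 47 SK cells, 8 of 36 bone marrow HSC and 5 of 56 fetal liver HSC. Mean log2(TPM+1) was 7.07 ± 2.26 in fetal liver HSC, 6.30 ± 2.89 in bone marrow HSC, 5.93 ± 2.79 in SK cells and 4.06 ± 3.51 in WT-MPP. No step in this order exceeded the smaller SD over cells.

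Hsph1 (chr5:149614287-149636376) encodes Hsp110, a nucleotide exchange factor of Hsp70. It was present in 18 of 47 SK cells (38.3%, interval 24.5 to 53.6%), 12 of 36 bone marrow HSC (33.3%, 18.6 to 51%), 16 of 56 fetal liver HSC (28.6%, 17.3 to 42.2%), and in only 4 of 41 WT-MPP (9.76%, 2.72 to 23.1%). The median level was 0 in all 4 populations, and the highest cell had 202 TPM in SK cells, 167 in WT-MPP, 156 in bone marrow HSC and 115 in fetal liver HSC. WT-MPP thus held the smallest share of cells with Hsph1, although its highest cell was within the range of the others.

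**Figure D3:**
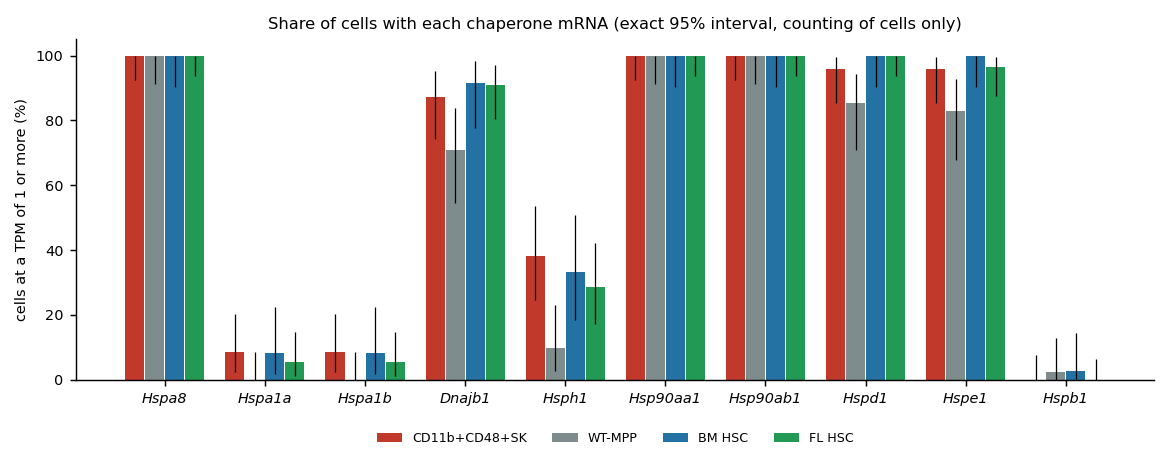
Share of cells with each chaperone mRNA at a TPM of 1 or more in the 4 populations, in percent, with exact 95% intervals that cover the counting of cells only. Hspa8, Hsp90aa1 and Hsp90ab1 reach 100% in every population, Hsph1 lies between 9.76% and 38.3%, and Hspa1a, Hspa1b and Hspb1 stay below 10%.

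The Hsp90 genes encode the stress-inducible form, Hsp90aa1 (chr12:110690605-110702728), and the constitutive form, Hsp90ab1 (chr17:45567775-45573271), of the cytosolic chaperone that matures kinases and steroid receptors. Hsp90ab1 was 415 to 2718 TPM (median 1394) in SK cells, 16 to 1962 (median 1075) in WT-MPP, 4.24 to 2340 (median 1229) in bone marrow HSC and 385 to 2281 (median 1241) in fetal liver HSC. Hsp90aa1 was 208 to 2111 TPM (median 850) in SK cells, 4.33 to 1477 (median 514) in WT-MPP, 123 to 1553 (median 602) in bone marrow HSC and 210 to 1337 (median 606) in fetal liver HSC. SK cells had the highest median of both genes and WT-MPP the lowest. Mean log2(TPM+1) of Hsp90aa1 was 9.62 ± 0.82 in SK cells, 9.22 ± 0.92 in bone marrow HSC, 9.17 ± 0.59 in fetal liver HSC and 8.56 ± 1.56 in WT-MPP, and that of Hsp90ab1 was 10.36 ± 0.48, 9.55 ± 2.0, 10.21 ± 0.54 and 9.36 ± 1.83 in the same order of populations. The step from fetal liver HSC to WT-MPP for Hsp90aa1 (0.61) and that from fetal liver HSC to bone marrow HSC for Hsp90ab1 (0.65) were larger than the smaller SD of the pair, and the other steps were not.

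The constitutive form led in most cells. Hsp90aa1 exceeded Hsp90ab1 in 8 of 47 SK cells, 7 of 41 WT-MPP, 10 of 36 bone marrow HSC and 3 of 56 fetal liver HSC. The ratio of the mean TPM of Hsp90aa1 to that of Hsp90ab1 was 0.657 in SK cells, 0.537 in WT-MPP, 0.615 in bone marrow HSC and 0.495 in fetal liver HSC.

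Hspd1 (chr1:55077835-55088243), the mitochondrial chaperonin Hsp60, and Hspe1 (chr1:55088132-55091307), its co-chaperonin Hsp10, lie head to head on chromosome 1. Hspd1 was 0 to 905 TPM (median 228) in SK cells, 0 to 1554 (median 124) in WT-MPP, 1.44 to 887 (median 258) in bone marrow HSC and 12.7 to 864 (median 264) in fetal liver HSC. Hspe1 was 0 to 1278 TPM (median 419) in SK cells, 0 to 1281 (median 208) in WT-MPP, 2.74 to 762 (median 268) in bone marrow HSC and 0 to 1683 (median 266) in fetal liver HSC. WT-MPP had the lowest median of both genes and also the most cells below 10 TPM, 14 of 41 for Hspd1 and 10 of 41 for Hspe1, against 0 of 56 and 2 of 56 fetal liver HSC. Mean log2(TPM+1) of Hspd1 was 7.80 ± 1.32 in fetal liver HSC, 7.07 ± 2.60 in SK cells, 7.06 ± 2.66 in bone marrow HSC and 5.61 ± 3.50 in WT-MPP. That of Hspe1 was 8.09 ± 2.22 in SK cells, 7.80 ± 1.76 in fetal liver HSC, 7.51 ± 1.86 in bone marrow HSC and 6.31 ± 3.43 in WT-MPP. No step in either order exceeded the smaller SD. Hspd1 exceeded its partner Hspe1 in 9 of 47 SK cells, 20 of 41 WT-MPP, 17 of 36 bone marrow HSC and 29 of 56 fetal liver HSC.

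Hspb1 (chr5:135887919-135889563), the small heat shock protein Hsp25, was present in 2 of the 180 cells, 1 WT-MPP with 144 TPM and 1 bone marrow HSC with 46.4 TPM. It was listed at 0 in all 47 SK cells and all 56 fetal liver HSC, which allows shares of cells of up to 6.38% and 5.36%.

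Several of these genes have processed copies in the genome that could take a part of their reads. Of the 50-base stretches in the transcripts of each gene, 68.8% of those of Hspa8, 50.1% of Hsp90aa1, 50.1% of Hspb1, 44.8% of Hspe1 and 42.1% of Hspd1 occur in transcripts of other annotated genes, against 4.13% for Hsp90ab1, 0.412% for Dnajb1 and 0% for Hsph1. The levels of the former genes are therefore less certain than those of the latter. The same limit holds for comparisons between genes, such as the order of Hspa8, Hsp90ab1 and Hsp90aa1 and the ratio of Hsp90aa1 to Hsp90ab1.

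Between populations, a gene was counted as higher or lower at a difference of 1 or more in mean log2(TPM+1) over cells, on a scale that understates the change of low genes. Hspa1a, Hspa1b and Hspb1 did not pass the filter on low values (presence in 10% of cells of any population was needed) that 10856 genes passed. All 10 chaperones are counted whether they passed or not. Medians over the 10 genes thus include these low genes, which lay near 0 in every population and lowered each median over all cells. The medians over all filtered genes leave such genes out, so that the sets are not alike. SK cells had higher chaperone mRNA than WT-MPP, with a median difference of 1.04 over the 10 genes against 0.21 over all filtered genes. Of the 10 genes, 6 were higher, namely Dnajb1 (1.87), Hspe1 (1.78), Hspd1 (1.46), Hsph1 (1.27), Hsp90aa1 (1.07) and Hsp90ab1 (1.0), where 19% of the filtered genes were higher. None was lower, where 5.01% of the filtered genes were, and Hspa8 differed by 0.60.

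The difference from WT-MPP moved with the number of genes present per cell and with the way cells were averaged. In the cells with 3974 to 4751 genes present, the range that all 4 populations shared (24 SK cells and 17 WT-MPP), the median difference over the 10 genes was 0.14 and 0 genes were higher, and Dnajb1 and Hspd1 were at -0.52 and -0.53. From the mean TPM over all cells, the ratio of SK cells to WT-MPP was 1.76 for Hsp90aa1, 1.71 for Hspe1, 1.43 for Hsp90ab1, 1.33 for Hspa8, 1.26 for Dnajb1 and 1.2 for Hspd1. Dnajb1 and Hspd1, which had many WT-MPP cells below 10 TPM, thus had among the largest differences in mean log2(TPM+1) and the smallest of these ratios. Whether the number of genes present accounts for the difference was not tested.

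**Figure D4:**
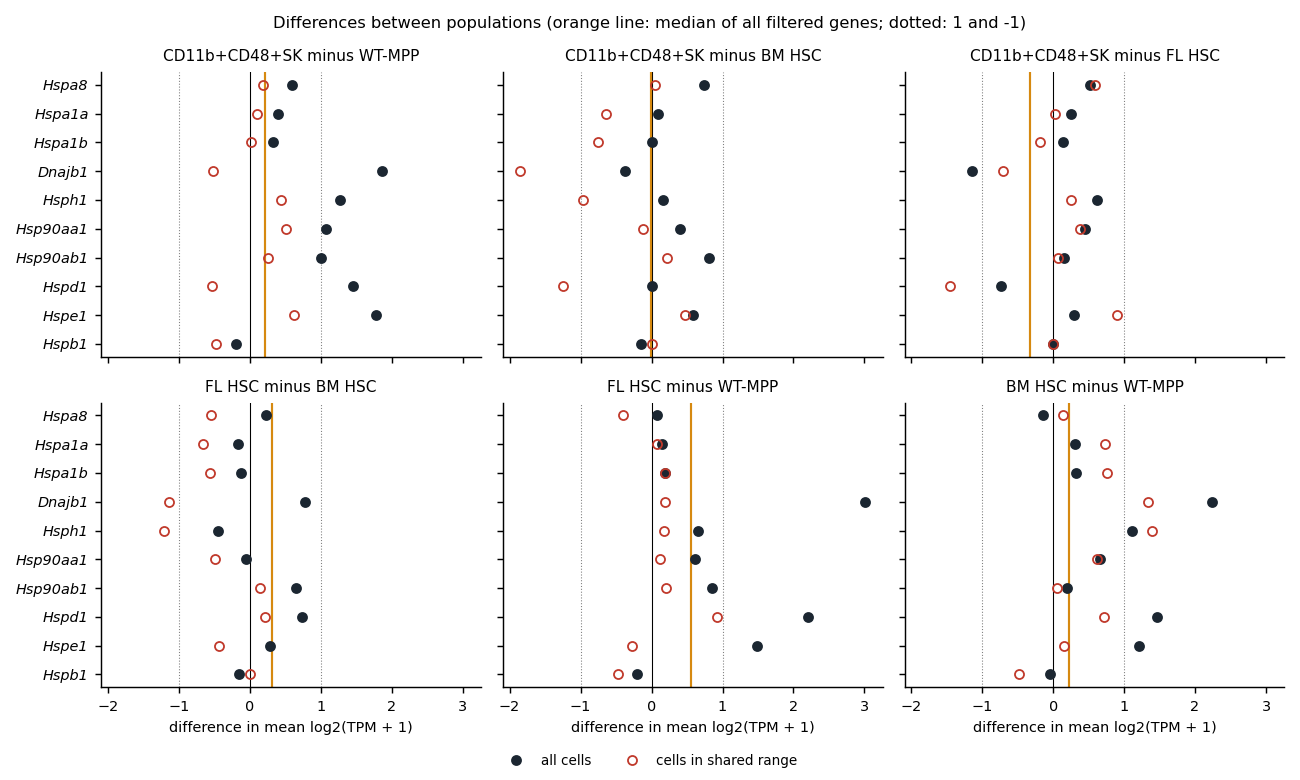
Difference in mean log2(TPM+1) of each chaperone between populations, with filled points for all cells, open points for the cells with 3974 to 4751 genes present, an orange line at the median of all filtered genes and dotted lines at 1 and -1. In the panel of SK cells and WT-MPP, 6 filled points and 0 open points lie at 1 or beyond.

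Bone marrow HSC and fetal liver HSC also stood above WT-MPP for part of the chaperones. In bone marrow HSC, 4 of the 10 genes were higher than in WT-MPP, Dnajb1 (2.24), Hspd1 (1.46), Hspe1 (1.21) and Hsph1 (1.11), and 0 were lower, against 14% and 2.67% of the filtered genes. The median over the 10 genes, with the low genes Hspa1a, Hspa1b and Hspb1 included, was 0.49, and that over all filtered genes 0.22. In fetal liver HSC, Dnajb1 (3.02), Hspd1 (2.20) and Hspe1 (1.49) were higher than in WT-MPP, with a median of 0.64 over the 10 genes and 0.56 over all filtered genes. The count of 3 of 10 genes higher was near the 33.9% of filtered genes, and 0 were lower, against 3.08%. In the shared range of genes present, 2 of the 10 genes were higher in bone marrow HSC than in WT-MPP and 0 in fetal liver HSC, where Hspe1 was at -0.27.

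Few chaperones were past the fold between SK cells and the 2 stem cell populations. Against bone marrow HSC, 0 of the 10 genes were higher or lower in SK cells, where 13.4% of the filtered genes were higher and 11.8% lower, and the median was 0.13 (-0.38 in the shared range of genes present). Hsp90ab1 (0.81), Hspa8 (0.74) and Hspe1 (0.58) had the largest positive differences. Against fetal liver HSC, only Dnajb1 was past the fold and was lower in SK cells (-1.15, and -0.71 in the shared range of genes present), where 4.02% of the filtered genes were higher and 20.9% lower. The median over the 10 genes was 0.20 and that over all filtered genes -0.32. Fetal liver HSC and bone marrow HSC differed by 1 or more for 0 of the 10 genes, where 25.6% of the filtered genes were higher in fetal liver HSC and 5.44% lower, and the median was 0.09 (-0.52 in the shared range) against 0.31 for all filtered genes. In the shared range, 2 of the 10 genes were lower in SK cells than in bone marrow HSC, Dnajb1 (-1.85) and Hspd1 (-1.24), and 2 were lower in fetal liver HSC, Dnajb1 (-1.14) and Hsph1 (-1.22).

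Over all cells, the share that held all of the more widely found chaperones was lowest in WT-MPP. WT-MPP also had the fewest genes present per cell (median 3844), and this share was not counted in the shared range of genes present. All of Hspa8, Hsp90aa1, Hsp90ab1, Dnajb1, Hspd1 and Hspe1, the 6 genes found in 50% or more of cells whichever the population, were at 10 TPM or more in 31 of 47 SK cells (66.0%), 13 of 41 WT-MPP (31.7%), 25 of 36 bone marrow HSC (69.4%) and 50 of 56 fetal liver HSC (89.3%). Over the 15 pairs of these genes, the median Spearman's rho across cells was 0.14 in SK cells (n = 47), 0.22 in WT-MPP (n = 41), 0.14 in bone marrow HSC (n = 36) and 0.34 in fetal liver HSC (n = 56). Cells of a population share the TPM scaling, and rho is given as a description. The number of pairs with rho of 0.3 or more was 6 of 15 in SK cells, 4 of 15 in WT-MPP, 2 of 15 in bone marrow HSC and 10 of 15 in fetal liver HSC.

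The pairs with the highest rho were not the same in all populations. Hspa8 with Hsp90aa1 and Hspa8 with Hspd1 led the 15 pairs in both SK cells and fetal liver HSC. The highest was Hsp90aa1 with Hspe1 in bone marrow HSC (0.50) and Dnajb1 with Hspe1 in WT-MPP (0.43). Hsp90aa1 and Hspe1 had rho of 0.54 in SK cells, 0.37 in fetal liver HSC and 0.25 in WT-MPP. Hspa8 and Hsp90aa1, the main constitutive Hsp70 and the inducible Hsp90, had rho of 0.62 in SK cells and 0.60 in fetal liver HSC, but 0.27 in bone marrow HSC and 0.14 in WT-MPP. Hspa8 and Hspd1 had 0.57 in SK cells and 0.60 in fetal liver HSC, and 0.20 and 0.25 in bone marrow HSC and WT-MPP. The partners Hspd1 and Hspe1 had rho of 0.44 in SK cells, 0.26 in WT-MPP, 0.37 in bone marrow HSC and 0.35 in fetal liver HSC. The Hsp90 genes had rho of 0.06 in SK cells, 0.37 in WT-MPP, 0.05 in bone marrow HSC and 0.31 in fetal liver HSC. The number of genes present had rho of 0.51 with Hspd1 and 0.47 with Hspe1 in SK cells, and given that number the rho of the pair was 0.26 there. For Hspa8 and Hsp90aa1, rho given the number of genes present was 0.58 in SK cells and 0.59 in fetal liver HSC.

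**Figure D5:**
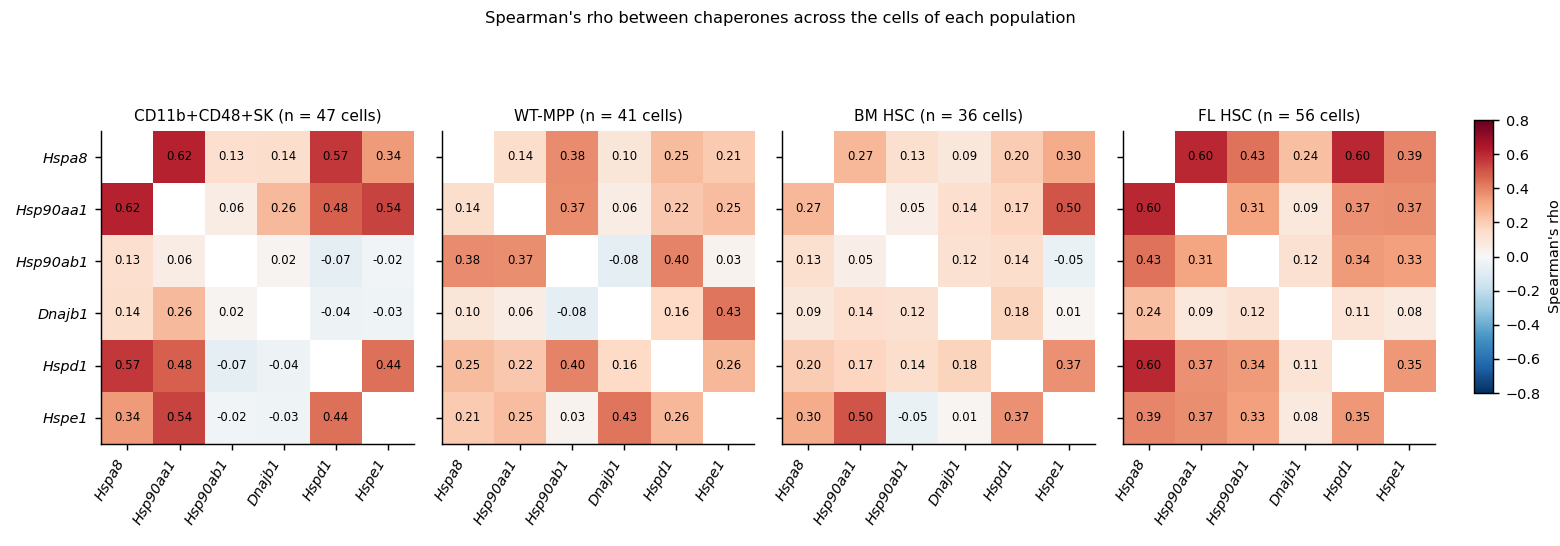
Spearman's rho between the 6 chaperones found in 50% or more of cells whichever the population, across the cells of each population, on a colour scale from -0.8 (blue) to 0.8 (red). Hspa8 with Hsp90aa1 and Hspa8 with Hspd1 have the highest values in SK cells and fetal liver HSC, at 0.57 to 0.62, and Hsp90aa1 with Hspe1 follows in SK cells at 0.54 and leads in bone marrow HSC at 0.50.

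The genes whose level followed the mean log2(TPM+1) of the 10 chaperones most closely were Srm, which encodes spermidine synthase (mean rho of 0.53 over the 4 populations), C1qbp, a mitochondrial matrix protein (0.49), Ncl, the nucleolar protein nucleolin (0.48), Hnrnpab, an RNA-binding protein (0.48), and Nme1, a nucleoside diphosphate kinase (0.47). They were the top 5 of 2541 genes found in 50% or more of cells whichever the population, whose median was 0.06. For Srm, rho was 0.41 in SK cells, 0.42 in WT-MPP, 0.62 in bone marrow HSC and 0.67 in fetal liver HSC. For Nme1 it was 0.58, 0.18, 0.48 and 0.63 in the same order. The number of genes present had rho of 0.53, 0.55, 0.25 and 0.25 with the chaperone mean in that order. The ranking of genes was not adjusted for that number.

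Of the heat shock factors, Hsf1 was present in 76.6% of SK cells, 51.2% of WT-MPP, 61.1% of bone marrow HSC and 76.8% of fetal liver HSC, with a difference of 1.36 between SK cells and WT-MPP and of 1.11 between fetal liver HSC and bone marrow HSC. By mean TPM, Hsf1 was 90.3 in SK cells and 97.9 in WT-MPP, the opposite order to that of the log2 means. Hsf2 was lower in fetal liver HSC than in bone marrow HSC (-1.35) and differed by -0.68 between SK cells and WT-MPP. Hsbp1, which encodes an inhibitor of Hsf1, was present in all cells of CD11b+CD48+SK and WT-MPP and differed by 0.22. Hsf4 was listed at 0 in every cell of these 2 populations.

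Co-chaperones of Hsp70 and Hsp90 were higher in SK cells than in WT-MPP for 9 of 25 genes and lower for 0, against 19% and 5.01% of the filtered genes, with a median of 0.81. In the shared range of genes present the median was 0.18, with 6 higher and 3 lower, and from log2 of the mean TPM plus 1 it was -0.05. St13, which assists Hsp70, differed by 2.42, and Stip1 (Hop), which links Hsp70 to Hsp90, by 2.03. By mean TPM, St13 was 138 in SK cells and 85.9 in WT-MPP, and Stip1 was 277 and 218. In fetal liver HSC, 17 of 25 were higher than in WT-MPP, against 33.9% of the filtered genes, but 6 in the shared range. The 6 of 25 higher than in bone marrow HSC were near the 25.6% of the filtered genes. St13 (2.79) and Ppp5c (2.07), a phosphatase bound to Hsp90, had the largest differences between fetal liver HSC and bone marrow HSC. The Hsp90 co-chaperone Ptges3 was at -0.62. Mean TPM in fetal liver HSC and bone marrow HSC was 175 and 88.4 for St13, 146 and 97.0 for Ppp5c, and 170 and 296 for Ptges3. Among the other cytosolic Hsp70, Hsp40 and small heat shock proteins, 3 of the 19 that passed the filter were higher in SK cells than in WT-MPP, near the 19% of all filtered genes, and 4 were lower, against 5.01%. The shared range gave 2 higher and 7 lower. Dnajc9, a J-domain protein that also binds histones, was 4.06 higher, Dnaja1, a J-domain partner of Hsp70, 1.55 higher, and Dnajb2, a further J-domain protein, was at -2.83. Mean TPM in SK cells and WT-MPP was 213 and 59.8 for Dnajc9, 135 and 126 for Dnaja1, and 0.995 and 83.7 for Dnajb2.

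The cytosolic chaperonin TRiC and its partner prefoldin were higher in fetal liver HSC than in bone marrow HSC for 8 of 13 genes (median 1.13), against 25.6% of the filtered genes, and than in WT-MPP for 11 of 13 (median 1.55), against 33.9%, with 0 lower in both. The subunit Cct2 differed by 2.16 between fetal liver HSC and bone marrow HSC and by 2.46 between SK cells and WT-MPP. By mean TPM, Cct2 was 256 in fetal liver HSC, 159 in bone marrow HSC, 218 in SK cells and 147 in WT-MPP. Between SK cells and WT-MPP, 5 of 13 genes of the list were higher (median 0.92), against 19%. In the cells of the shared range of genes present, the median of this list was 1.05 between fetal liver HSC and bone marrow HSC, with 7 of 13 higher, 0.73 between fetal liver HSC and WT-MPP, with 5 higher, and 0.13 between SK cells and WT-MPP, with 1 higher. From log2 of the mean TPM plus 1 these medians were 0.31, 0.37 and 0.10. Mitochondrial chaperones and proteases were higher in fetal liver HSC than in WT-MPP for 9 of 13 genes (median 1.73, against 33.9% of the filtered genes) and in SK cells for 6 of 13 (median 0.93, against 19%), but in the shared range these medians were 0.08 and -0.03. Hspa9 (mortalin), the mitochondrial Hsp70, was at -0.95 in SK cells against WT-MPP. Chaperones of the endoplasmic reticulum had a median difference of 0.12 between SK cells and WT-MPP, with 6 of 24 higher and 1 lower, against 19% and 5.01% of the filtered genes. The shared-range median was -0.23, with 2 higher and 6 lower. Sdf2l1 (3.93) and Pdia4 (3.04) had the largest positive differences, and Dnajb9 was at -1.81. Mean TPM in SK cells and WT-MPP was 147 and 27.1 for Sdf2l1, 122 and 96.1 for Pdia4, and 18.1 and 104 for Dnajb9.

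Other groups of genes were set beside the chaperones. Immediate early genes, which respond to stress and to cell handling, were lower in SK cells than in bone marrow HSC for 14 of the 18 genes that passed the filter (median -2.88), against 11.8% of all filtered genes, and than in WT-MPP for 11 of 18 (median -1.52), against 5.01%. In the shared range these medians were -2.18 and -1.96, beside -0.38 and 0.14 for the 10 chaperones. Across the cells of a population, rho between the mean log2(TPM+1) of the chaperones and that of the immediate early genes was -0.10 in SK cells, 0.20 in WT-MPP, -0.03 in bone marrow HSC and -0.04 in fetal liver HSC. Given the number of genes present, this rho was -0.23, 0.09, -0.29 and -0.07 in the same order. DNA replication genes were higher in SK cells than in WT-MPP for 35 of 41 genes, against 19% of the filtered genes, and for 27 of 41 in the shared range. Their rho with the chaperones was 0.53 in SK cells, 0.32 in WT-MPP, 0.53 in bone marrow HSC and 0.38 in fetal liver HSC, and given the number of genes present it was 0.22, -0.01, 0.49 and 0.28.

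Markers of other cell types were checked beside these values. The summed level of 4 erythroid markers in the table was 31.7 to 4955 TPM in fetal liver HSC (median 1004), and its median was 0 in SK cells and in WT-MPP and 1.15 in bone marrow HSC. Most of the fetal liver sum was the globin gene Hbb-b1, present in 55 of 56 cells with a mean of 1426 TPM. Epor was present in 23 of 56 fetal liver HSC (mean 41.9 TPM), Klf1 in 2 and Hba-a1 in 1. The 7 myeloid markers summed to 325 to 7706 TPM (median 1732) in SK cells, 9.20 to 4159 (median 885) in WT-MPP, 219 to 3367 (median 1005) in bone marrow HSC and 79.1 to 3990 (median 1186) in fetal liver HSC. Of this list, Mpo (43 of 47 cells) and Ctsg (39 of 47) were present in most SK cells, against 4 of 41 and 0 of 41 WT-MPP, Lyz2 was present in every cell of both, S100a8 and S100a9 in 5 and 2 SK cells and no WT-MPP, and Elane and Csf1r were below 1 TPM in every cell of both. Of the mast cell or basophil markers, Cpa3 was present in 41 of 47 SK cells against 3 of 41 WT-MPP, Mcpt8 in 17 of 47 against 0 of 41, and Gata2 in 40 of 47 against 38 of 41. Within populations, rho of these sums with the mean chaperone level was -0.05, -0.15, -0.03 and 0.10 for the erythroid list, 0.29, 0.07, -0.11 and -0.37 for the myeloid list, and 0.14, 0.08, 0.06 and -0.35 for the mast cell or basophil list, in SK cells, WT-MPP, bone marrow HSC and fetal liver HSC. In the same order, rho was 0.01, 0.27, 0.40 and 0.18 for the megakaryocyte list and 0.10, 0.02, 0.36 and 0.08 for the liver list. It was -0.14, -0.27, 0.10 and -0.12 for the B cell list and -0.17, 0.21, 0.04 and -0.04 for the T cell list. For the endothelial list it was -0.105, -0.16, -0.09 and -0.16. The part of these markers in the differences between populations was not tested.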

How the data were processed

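Single cells were sorted by FACS, cDNA was made with the Discover-sc WTA Kit V2 and libraries with the TruePrep DNA Library Prep Kit V2. Per the labels, reads were aligned to mm10 with HISAT2 2.1.0 and expression was estimated with StringTie 1.3.4. The authors deposited TPM per gene and cell in 1 table, each cell summing to 1000000, and no counts were used. How reads that match several genes were shared is not given in the sources used here. Cells were mapped to populations by the labels, and 1 column whose name matched no sample was left out. No 2 cells held identical values.

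Means over cells of log2(TPM+1) were compared in 6 pairs of populations with Python 3.11.15, pandas 2.3.3 and scipy 1.17.1. A gene was present at a TPM of 1 or more and past the fold at a difference of 1. Each population is 1 sample, so that no test was made. Shares of cells have exact Clopper-Pearson 95% intervals. The calculations were checked on simulated data. Named genes were the 10 chaperones, sort markers, the genes of each list with the 2 largest positive and 2 largest negative differences in SK cells against WT-MPP or in fetal liver against bone marrow HSC, and the 5 genes most like the chaperone mean. Not every gene that this rule selects is printed. Gene positions are from GENCODE M21 (GRCm38). The chaperones and the lists were chosen with earlier results of these data known. The 15 pairs of genes for rho were set after the values were seen.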

Additional observations from a re-analysis of the deposited data

How the results depend on the processing

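The median difference of the 10 chaperones between SK cells and WT-MPP (1.04) remained positive but below 1 with a pseudocount of 10 (0.76), from log2 of the mean TPM plus 1 (0.60), with cells scaled by the median ratio (0.98) and in the cells of the shared range of genes present (0.14). It was 1 or more with a pseudocount of 0.1 and without the highest cell of each population. The other 5 medians stayed below 1 under every alternative, with the low genes Hspa1a, Hspa1b and Hspb1 counted. The sign turned in the shared range for SK cells against bone marrow HSC (0.13 to -0.38) and for fetal liver HSC against bone marrow HSC (0.09 to -0.52). The latter sign also turned from log2 of the mean TPM plus 1 (-0.11). With a pseudocount of 10, the number of chaperones higher was 3 for SK cells against WT-MPP and 1 for bone marrow HSC against WT-MPP, and 0 were lower in SK cells than in fetal liver HSC. From log2 of the mean TPM plus 1, it was 2 higher (Hspa1a at 2.69 and Hspa1b at 1.31, present in few cells, and none of the 6 genes named as higher, which were at 0.27 to 0.81) and 1 lower (Hspb1) for SK cells against WT-MPP, 1 lower against bone marrow HSC, 1 higher and 0 lower against fetal liver HSC, 3 lower for fetal liver HSC against bone marrow HSC, 0 higher and 1 lower for fetal liver HSC against WT-MPP and 2 higher for bone marrow HSC against WT-MPP. In the shared range, where 14 to 24 cells remained per population, it was 0 higher for SK cells and for fetal liver HSC against WT-MPP, 2 higher for bone marrow HSC against WT-MPP, and 2 lower for SK cells and for fetal liver HSC against bone marrow HSC. Among genes at 1 or beyond in either setting, the sign turned there for Dnajb1 (-0.52) and Hspd1 (-0.53) in SK cells against WT-MPP, Hspd1 (-1.24) in SK cells against bone marrow HSC, Dnajb1 (-1.14) in fetal liver HSC against bone marrow HSC and Hspe1 (-0.27) in fetal liver HSC against WT-MPP. It also turned in 9 of the 60 differences there with both values under 1, among them Hsph1 (0.16 to -0.96), Hspa1b (0.01 to -0.75), Hspa1a (0.09 to -0.64) and Hsp90aa1 (0.40 to -0.12) in SK cells against bone marrow HSC. The cause was not tested. Of 360 differences of single genes under the alternatives, 283 kept both their sign and their side of 1, and the sign turned in 27.

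The median rho was 0.30 in SK cells with cells scaled by the median ratio and 0.25 in bone marrow HSC as Pearson's r of log2(TPM+1). Over all pairs of chaperones, an alternative added after seeing the data, it was 0.033 in WT-MPP and 0.20 in fetal liver HSC. The share of filtered genes higher in SK cells than in WT-MPP ranged from 6.95% to 28.8% over the alternatives. No paired analysis was possible because no animal was named for any cell and no test was made. With 1 sample per population, differences between animals cannot be told apart from differences between populations, and the unknown depth leaves absence of a gene from a cell uncertain.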
